A study of Rattus norvegicus with 42 samples.

Results

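Neutrophil chemokines and their receptors were examined in rat lung after inhalation of crystalline silica, with and without a high-fat diet. The set held 6 genes, the chemokines Cxcl1, Cxcl2, Cxcl3 and Cxcl6 and the receptors Cxcr1 and Cxcr2. They were chosen by symbol, and all 6 were found among the 30044 gene symbols shared by the tables of both time points and passed the filter on low counts in each. RNA had been sequenced from a lung piece of each of 42 male Fischer 344 rats (F344/DuCrl, an inbred strain bought at 3 months of age). Diets drew 60% (high-fat) or 18% (regular) of their energy from fat and were fed from 2 weeks before exposure until the end. Silica rats breathed 15 mg of crystalline silica per cubic metre with the whole body for 6 hours a day on 5 days, and air rats were exposed in the same way to air without silica. Lungs were taken 3 or 9 months after exposure. The 3-month groups were high-fat diet plus silica (5 rats), regular diet plus silica (5 rats), high-fat diet plus air (5 rats) and regular diet plus air (4 rats). Their 9-month counterparts had 6, 5, 6 and 6 rats.

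The 4 chemokines belong to the CXC family and carry the glutamate-leucine-arginine motif that marks family members acting on neutrophils. They bind Cxcr2, and in humans CXCR1 binds a narrower range of them; both receptors couple to G proteins of the Gi class and steer neutrophils up a chemokine gradient into inflamed airspaces. Epithelial cells and macrophages of the lung make the ligands after signals from Il1b, Tnf and Il17a, largely through the transcription factor NF-kB. Cxcl1 was first described in the rat as cytokine-induced neutrophil chemoattractant, and Cxcl2 and Cxcl3 are its close paralogs. RefSeq lists Cxcl6 of the rat with the synonym Cxcl5.

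In the RefSeq gene table of the rat assembly GRCr8 the ligand genes neighbour each other on chromosome 14, in the order Cxcl2, Cxcl1, LOC134481726, Cxcl3, Pf4, Ppbp and Cxcl6, and Cxcr2 and Cxcr1 neighbour each other on chromosome 9. RefSeq promoter windows of 300 bases, from 250 before to 50 after the gene start in GRCr8, were matched to 5 of the 6 genes, all but Cxcl3. The NF-kB consensus was searched on both strands in these windows and was found in Cxcl1, Cxcl2 and Cxcl6. The 250 bases before the start of these 3 genes are shown because they carry a similar palindrome-like stretch at nearly the same place. Capitals mark the 11 bases covered by overlapping matches on the 2 strands. Cxcl1 (chr14:17479322-17479571, minus strand), Cxcl2 (chr14:17467256-17467505, minus strand) and Cxcl6 (chr14:17596418-17596667, minus strand) read as follows, 5′ to 3′.
Cxcl1: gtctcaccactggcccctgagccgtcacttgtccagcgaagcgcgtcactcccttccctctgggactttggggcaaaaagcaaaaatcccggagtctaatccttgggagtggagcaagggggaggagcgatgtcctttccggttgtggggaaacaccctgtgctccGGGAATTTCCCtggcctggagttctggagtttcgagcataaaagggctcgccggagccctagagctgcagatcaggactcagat
Cxcl2: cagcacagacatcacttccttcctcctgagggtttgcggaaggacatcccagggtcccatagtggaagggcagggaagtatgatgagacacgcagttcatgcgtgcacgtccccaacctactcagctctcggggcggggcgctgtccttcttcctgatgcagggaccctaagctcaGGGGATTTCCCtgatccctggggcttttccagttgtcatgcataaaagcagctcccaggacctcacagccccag
Cxcl6: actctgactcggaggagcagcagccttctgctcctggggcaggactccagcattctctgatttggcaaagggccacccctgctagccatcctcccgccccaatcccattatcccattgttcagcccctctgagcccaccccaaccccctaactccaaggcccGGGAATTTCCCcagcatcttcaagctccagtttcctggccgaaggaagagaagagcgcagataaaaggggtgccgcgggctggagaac
The marked stretch was GGGAATTTCCC in both Cxcl1 and Cxcl6 and GGGGATTTCCC in Cxcl2. It lay 84 to 74 bases before the start of Cxcl1, 74 to 64 before that of Cxcl2 and 88 to 78 before that of Cxcl6. The windows of Cxcr1 and Cxcr2 held no match. Of 33469 promoter windows of the same length, 1400 (4.18%) held the NF-kB consensus. The motif TGANTCA, bound by AP-1 factors, was in 2453 windows (7.33%) and in none of the 5 examined here. A match describes the letters only and is not evidence of binding.

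The 3-month libraries held between 5143424 and 8259635 counts, and the 9-month libraries between 3078216 and 8319382. Levels are given as CPM, read counts scaled to a common library size after TMM normalisation (the trimmed mean of M values) within each table, so levels of different time points were not compared directly. Read counts behind the levels ran from 3008 to 10762 per rat for Cxcl3, 52 to 618 for Cxcl1, 46 to 309 for Cxcr2, 38 to 177 for Cxcr1, 2 to 469 for Cxcl6 and 2 to 60 for Cxcl2, so the low levels of Cxcl2 and Cxcl6 in air carry the most counting error. The share of counts on the ribosomal RNA genes Rnr1 and Rnr2 was 0.605% to 1.66% over all rats at 3 months. At 9 months it was 7.29% to 7.85% with high-fat diet and silica, 2.60% to 5.35% with regular diet and silica, 4.62% to 7.19% with high-fat diet in air and 0.375% to 2.29% with regular diet in air, so it moved with both diet and silica. Markers of alveolar type 2 cells and of club cells, summed over each list, were at least 12813 CPM and 1317 CPM in every rat, so both kinds of lung epithelium were represented.

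Silica at 3 months on the regular diet was compared with air to see which members of the system differed long after the exposure. Cxcl6, an epithelial neutrophil attractant, was 17.0-fold higher with silica, Cxcl2 3.15-fold, Cxcl1 2.64-fold and Cxcl3 1.81-fold. The receptor Cxcr2, carried by mature neutrophils, was 1.67-fold higher, and Cxcr1 did not pass the test. A gene was called when its adjusted p (edgeR quasi-likelihood test, Benjamini-Hochberg adjustment over all 15234 genes tested) was below 0.05. By that rule 5 of the 6 genes were called, all higher, where 16.8% of all genes were called and 10.2% were called higher. The median log2 fold change was 1.13 over the 6 genes and -0.01 over all genes tested. In whole lung, a change in the number of cells of a type and a change in RNA per cell cannot be told apart. This holds for every result here.

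Cxcl6 had 55.7, 55.8, 50.5, 58.4 and 48.6 CPM in the silica rats, against 2.32, 3.27, 2.40 and 4.43 CPM in the air rats. Every silica rat lay far above every air rat, and the silica rats lay close to each other. The log2 fold change was 4.09 ± 0.24 (SE; adjusted p = 1.24e-10). Cxcl1 had 90.9, 85.0, 63.7, 66.1 and 75.5 CPM with silica and 19.9, 33.8, 23.9 and 37.0 CPM in air. The groups did not overlap, and rats 1 and 2 were the highest with silica. The log2 fold change of Cxcl1 was 1.40 ± 0.16 (adjusted p = 2.36e-06). Cxcl2 had 7.95, 7.84, 6.06, 6.52 and 7.04 CPM with silica, against 1.93, 3.42, 2.06 and 1.36 CPM in air. These groups were apart too, although the air rats came from few reads, and the log2 fold change was 1.66 ± 0.21 (adjusted p = 1.2e-05).

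Cxcl3 had 1124, 1421, 1331, 1425 and 1146 CPM in silica lungs and 696, 680, 751 and 720 CPM in air lungs. The air rats lay within a narrow band below all silica rats. The log2 fold change was 0.86 ± 0.09 (adjusted p = 3.86e-07), smaller in size than that of the other ligands and estimated from many more reads. Because Cxcl1, Cxcl2 and Cxcl3 are close paralogs, reads that match more than 1 of them may have been dropped by the authors' counting. The counts of each are uncertain to that extent.

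Cxcr2 had 21.2, 18.1, 22.5, 21.9 and 21.8 CPM with silica, against 14.1, 12.8, 14.1 and 9.71 CPM in air. All silica rats exceeded all air rats, and the log2 fold change was 0.74 ± 0.16 (adjusted p = 0.00271). Cxcr1 had 7.79, 7.84, 17.2, 18.9 and 12.3 CPM with silica and 10.2, 13.2, 6.70 and 10.7 CPM in air. Its silica rats were split, with rats 3 and 4 above the air range and rats 1, 2 and 5 within it. The log2 fold change was 0.31 ± 0.23 (adjusted p = 0.374). Ranges of the groups were apart for 5 of the 6 genes, all but Cxcr1, and for 14.7% of all genes.

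**Figure D1:**
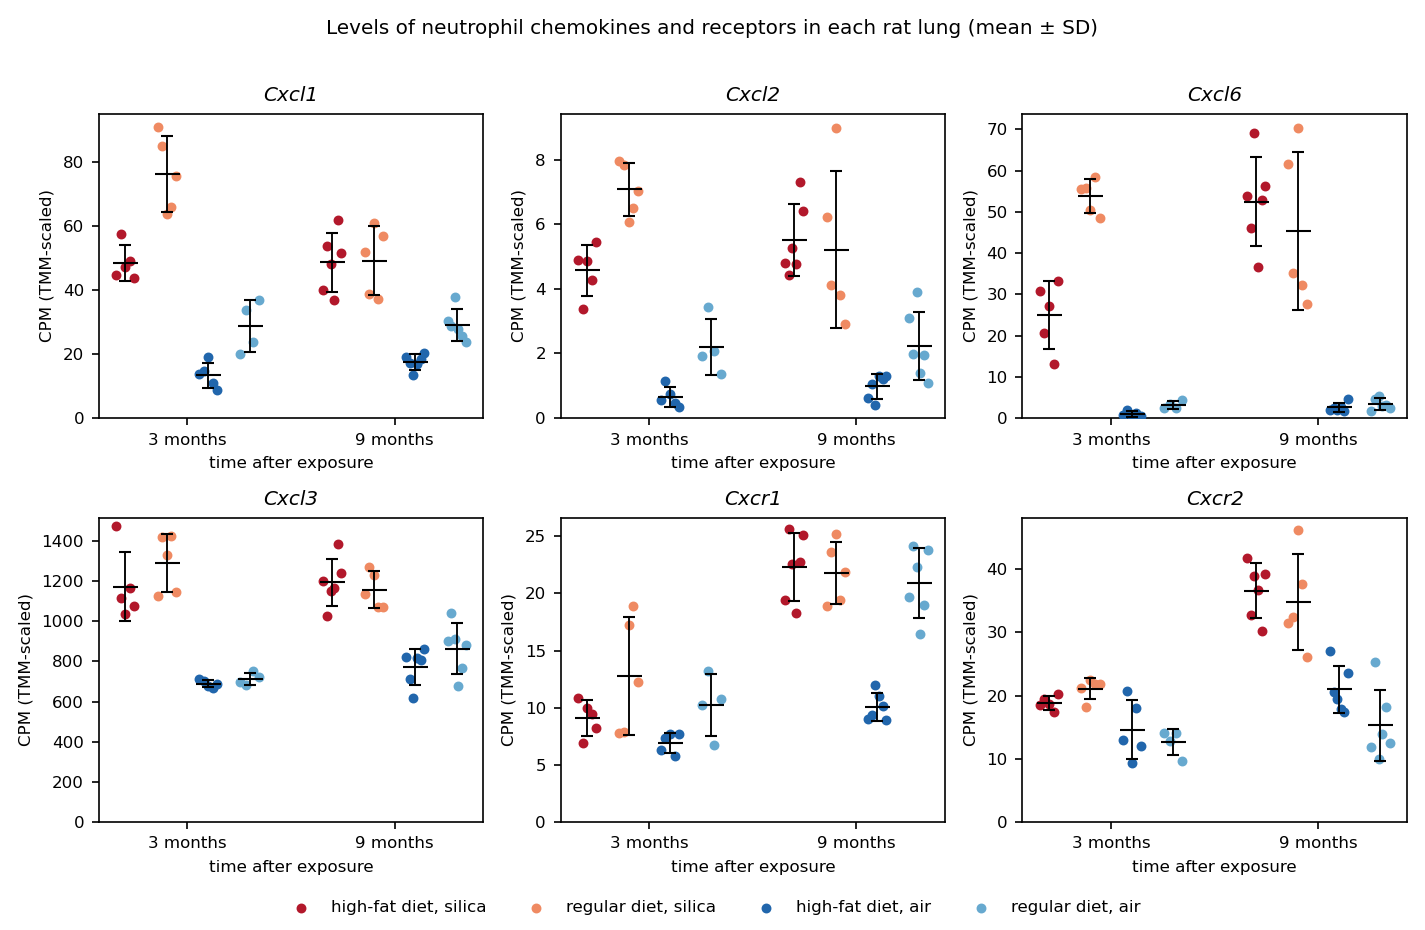
Levels of the 6 genes in each rat, as CPM on an axis that starts at 0, by group at 3 and 9 months after exposure; points are rats, bars the mean and SD of 4 to 6 rats. The Cxcl6 silica rats lie between 13.0 and 70.3 CPM and all air rats at or below 5.41 CPM, while Cxcr1 at 9 months is low only in the high-fat air group, at 8.95 to 12.0 CPM.

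On the high-fat diet at 3 months the same 4 ligands rose with silica and neither receptor was called. With 4 of 6 genes called, all higher, the share among all genes was 17.4% called and 9.23% called higher. The median log2 fold change was 1.31 over the 6 genes and -0.01 over all genes. Cxcl6 had 30.9, 20.7, 27.3, 13.0 and 33.2 CPM with silica, against 0.680, 1.95, 0.364, 1.22 and 0.502 CPM in air. The lowest silica rat was still several times above the highest air rat, and the log2 fold change was 4.70 ± 0.31 (adjusted p = 5.24e-10), or 26.0-fold. Cxcl1 had 44.6, 57.6, 47.3, 48.9 and 43.7 CPM with silica and 13.9, 14.6, 19.0, 10.8 and 8.70 CPM in air. Both groups were narrow and well apart, with a log2 fold change of 1.86 ± 0.17 (adjusted p = 6.94e-08).

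Cxcl2 had 4.88, 3.37, 4.86, 4.29 and 5.46 CPM in high-fat silica rats and 0.544, 1.14, 0.729, 0.457 and 0.335 CPM in high-fat air rats. No rat of one group entered the range of the other, and the log2 fold change was 2.82 ± 0.29 (adjusted p = 3.1e-07). Cxcl3 had 1473, 1114, 1037, 1164 and 1078 CPM with silica, against 710, 703, 675, 669 and 685 CPM in air. Silica rat 1 stood highest, the air rats were almost equal, and the log2 fold change was 0.77 ± 0.08 (adjusted p = 5.1e-07). For Cxcr2 the silica rats had 18.6, 19.5, 18.7, 17.3 and 20.2 CPM and the air rats 12.9, 20.8, 9.29, 18.0 and 12.1 CPM. The ranges overlapped because air rats 2 and 4 were as high as the silica rats, and the log2 fold change was 0.36 ± 0.15 (adjusted p = 0.0967). It was called without air rat 2 (0.53, adjusted p = 0.00798) and without air rat 4 (0.46, adjusted p = 0.0460). Cxcr1 had 10.9, 6.89, 9.96, 9.47 and 8.26 CPM with silica, against 6.26, 7.31, 7.65, 5.78 and 7.70 CPM in air. Silica rat 2 lay within the air range, and the log2 fold change of 0.40 ± 0.25 did not pass (adjusted p = 0.316). Ranges were apart for 4 of the 6 genes, the ligands, and for 12.9% of all genes.

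Neutrophil markers moved with silica at 3 months. Of the 12 listed, 10 were tested, and silica raised 4 on the high-fat diet and 7 on the regular diet and lowered none. S100a9, a calcium-binding protein abundant in neutrophils, rose by 2.10 on the log2 scale on the high-fat diet and by 2.70 on the regular diet. The other markers called on the high-fat diet were S100a8 (1.11), Cd177 (4.39) and Lcn2 (4.18), while Csf3r (0.26), Mmp8 (0.32), Mmp9 (0.06), Camp (0.05), Padi4 (-0.18) and Ngp (-0.69) were not called. The list summed to 500 to 654 CPM with high-fat diet and silica, 605 to 902 CPM with regular diet and silica, 102 to 266 CPM with high-fat diet in air and 147 to 195 CPM with regular diet in air. S100a9 made up most of the sum with silica, with a mean of 358 CPM on the high-fat diet and 493 CPM on the regular diet. Mpo and Elane, granule enzymes made in immature neutrophils, summed to at most 5 and 6 counts in any group at either time. Lcn2 and Cd177, which are on the list, are also made by epithelium. Alveolar macrophage markers were called higher for 4 of 6 tested on each diet, and alveolar type 2 markers likewise for 4 of 6. The share of all genes called higher was 9.23% on the high-fat diet and 10.2% on the regular diet. Alveolar type 1 markers were called lower for 5 of 6 and 6 of 6, and endothelial markers for 5 of 6 and 4 of 6. The part of cell numbers in the results was not tested.

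At 9 months on the regular diet, 5 of the 6 genes were again higher with silica, with Cxcr1 the one that did not pass. All genes were called far more often at this time, 45.1% in either direction and 24.5% higher. The median log2 fold change was 0.98 over the 6 genes and 0.00 over all genes. Cxcl6 had 61.6, 35.1, 70.3, 32.2 and 27.6 CPM with silica, and its air rats ran from 1.63 CPM to a highest of 5.41 CPM with a median of 3.02 CPM. The silica rats were spread widely, with rats 1 and 3 highest, but all lay above the air rats, and the log2 fold change was 3.80 ± 0.27 (adjusted p = 3.59e-11). Cxcl1 had 51.9, 38.8, 61.0, 37.2 and 56.8 CPM with silica, against a lowest of 23.6, a median of 28.3 and a highest of 37.9 CPM in air. Silica rat 4 lay just inside the air range, and the log2 fold change was 0.77 ± 0.14 (adjusted p = 7.65e-05).

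Cxcl2 had 6.23, 4.13, 8.99, 3.83 and 2.90 CPM in these silica rats, against a lowest of 1.08, a median of 1.96 and a highest of 3.89 CPM in air. Silica rats 4 and 5 overlapped the air range, and rats 1 and 3, high for Cxcl6, were high here as well. The log2 fold change was 1.31 ± 0.29 (adjusted p = 7.17e-04). Cxcl3 had 1136, 1273, 1232, 1069 and 1073 CPM with silica, against a lowest of 678, a median of 890 and a highest of 1044 CPM in air. The groups were just apart, and the log2 fold change was 0.42 ± 0.09 (adjusted p = 6.09e-04). With the share of ribosomal RNA as a covariate, Cxcl1 (0.54, adjusted p = 0.0575) and Cxcl3 (0.29, adjusted p = 0.115) were not called. That share did not overlap between these silica and air rats, so the covariate and silica can hardly be told apart here.

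Cxcr2 had 31.5, 32.4, 46.3, 37.6 and 26.1 CPM in the 9-month silica rats of the regular diet, against a lowest of 9.95, a median of 13.2 and a highest of 25.3 CPM in air. The groups were apart by a small gap, set by 1 air rat well above the others, and the log2 fold change was 1.20 ± 0.17 (adjusted p = 3.04e-06). Cxcr1 had 18.9, 23.6, 25.2, 19.4 and 21.8 CPM with silica against a lowest of 16.5, a median of 21.0 and a highest of 24.2 CPM in air. The ranges nearly coincided, and the log2 fold change was 0.06 ± 0.11 (adjusted p = 0.677). Ranges were apart for 3 of the 6 genes, Cxcl3, Cxcl6 and Cxcr2, and for 23.8% of all genes.

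On the high-fat diet at 9 months all 6 genes rose with silica, against 51.6% of all genes called and 26.7% called higher. All 6 also had ranges that were apart, as had 29.6% of all genes. The median log2 fold change was 1.30 over the 6 genes and 0.00 over all genes. Cxcl6 ran from 36.6 to 69.1 CPM with a median of 53.4 CPM in silica rats, against 1.70 to 4.58 CPM with a median of 2.19 CPM in air rats. The gap was wide, and the log2 fold change was 4.43 ± 0.27 (adjusted p = 8.74e-13), or 21.6-fold. Cxcl1 ran from 36.8 to 62.0 CPM with a median of 49.7 CPM with silica, against 13.3 to 20.3 CPM with a median of 17.9 CPM in air. That gave a log2 fold change of 1.48 ± 0.14 (adjusted p = 3.01e-09). For Cxcl2 the silica rats ran from 4.44 to 7.30 CPM with a median of 5.05 CPM and the air rats from 0.399 to 1.31 CPM with a median of 1.13 CPM. Every air rat was low, and the log2 fold change was 2.51 ± 0.33 (adjusted p = 5.31e-07).

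Cxcl3 ran from 1028 to 1386 CPM with a median of 1182 CPM with silica on the high-fat diet, against 617 to 860 CPM with a median of 810 CPM in air. That gave a log2 fold change of 0.63 ± 0.09 (adjusted p = 1.79e-06). Cxcr2 ran from 30.2 to 41.7 CPM with a median of 37.8 CPM with silica, against 17.3 to 27.1 CPM with a median of 20.0 CPM in air. The receptor thus stood higher in every silica rat, with a log2 fold change of 0.82 ± 0.16 (adjusted p = 1.25e-04). Cxcr1 ran from 18.3 to 25.6 CPM with a median of 22.7 CPM with silica, against 8.95 to 12.0 CPM with a median of 9.76 CPM in air. The silica rats lay where both regular-diet groups lay, the high-fat air rats lay below all of them, and the log2 fold change was 1.12 ± 0.11 (adjusted p = 6.91e-09).

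**Figure D2:**
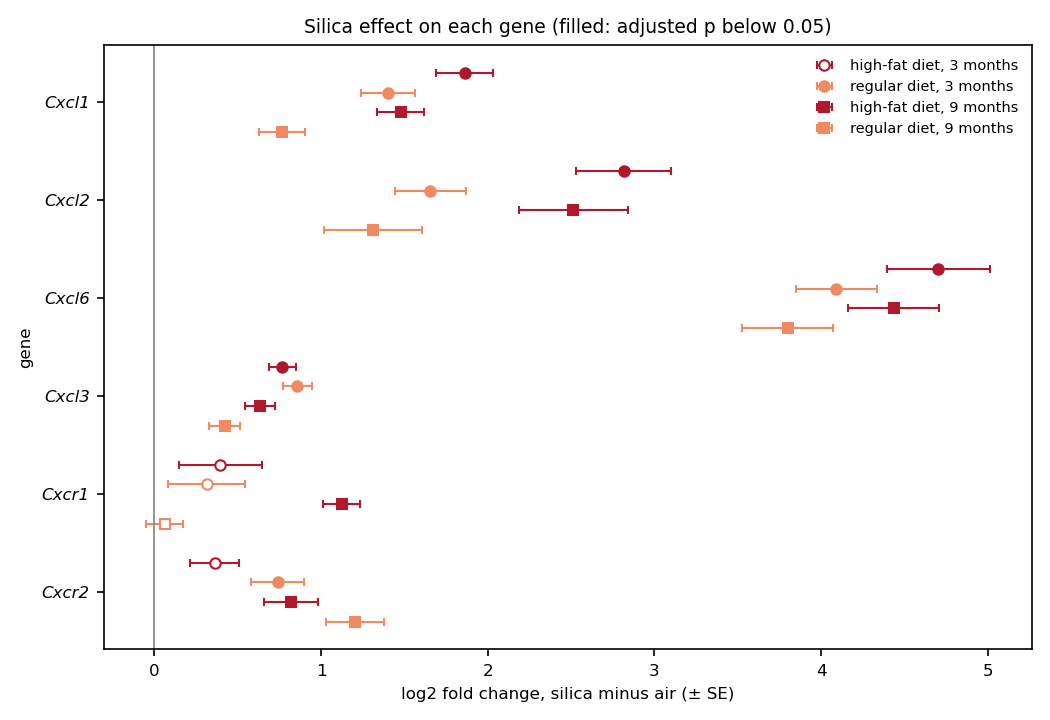
Log2 fold change, silica minus air, of each gene with its standard error, on both diets at 3 and 9 months; filled symbols have an adjusted p below 0.05. Cxcl6 has the largest changes of the 6 genes, 3.80 to 4.70, and Cxcr1 is called in 1 of the 4 comparisons, at 1.12 on the high-fat diet at 9 months.

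Neutrophil markers at 9 months were called higher with silica for 6 of 10 on the high-fat diet and 8 of 10 on the regular diet, and none was called lower. The list summed to 950 to 1229 CPM with high-fat diet and silica, 566 to 1488 CPM with regular diet and silica, 169 to 290 CPM with high-fat diet in air and 131 to 397 CPM with regular diet in air. S100a9 rose by 2.74 on the log2 scale on the high-fat diet and by 2.66 on the regular diet. It made up most of the sum with silica, with means of 769 CPM and 624 CPM. Not called were Mmp8 (0.40), Camp (0.23), Padi4 (0.07) and Ngp (-0.24) on the high-fat diet. On the regular diet these were Camp (0.14) and Padi4 (0.16). Alveolar macrophage markers rose for 7 of 7 on the high-fat diet and 6 of 7 on the regular diet. The share of all genes called higher was 26.7% and 24.5%. T cell markers were called higher for 2 of 5 and 5 of 5. Alveolar type 1 markers were called lower for 6 of 6 on each diet. Endothelial markers were called lower for 6 of 6 and 5 of 6, and fibroblast markers for 5 of 5 and 4 of 5. Whether these shifts account for any member was not tested.

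The high-fat diet was then compared with the regular diet among silica rats at 3 months, to ask whether diet altered the raised ligands. Cxcl6 and Cxcl1 were lower on the high-fat diet, 2 of 6 genes called where 0.702% of all genes were called and 0.407% were called lower. From the levels above, every high-fat silica rat lay below every regular-diet silica rat for Cxcl6, Cxcl1 and Cxcl2, 3 of 6 genes, as for 2.19% of all genes. Cxcl6 averaged 25.0 ± 8.19 CPM on the high-fat diet and 53.8 ± 4.07 CPM on the regular diet (SD, n = 5 each). Its log2 fold change was -1.09 ± 0.15 (adjusted p = 6.61e-04). Cxcl1 averaged 48.4 ± 5.54 CPM on the high-fat diet and 76.2 ± 11.7 CPM on the regular diet. The change of -0.65 ± 0.14 on the log2 scale was called (adjusted p = 0.0229), and the call was lost without regular-diet rat 1 (adjusted p = 0.0702) or 2 (0.0638) and without high-fat rat 3 (0.0705) or 5 (0.0664).

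Cxcl2 averaged 4.57 ± 0.789 CPM on the high-fat diet and 7.08 ± 0.819 CPM on the regular diet in silica rats, and its log2 fold change of -0.62 ± 0.16 did not pass (adjusted p = 0.0793). The other 3 genes had log2 fold changes of -0.14 for Cxcl3 (adjusted p = 0.512), -0.49 for Cxcr1 (adjusted p = 0.351) and -0.16 for Cxcr2 (adjusted p = 0.688). Of the neutrophil markers 1 was called, Lcn2, at -0.76, and 3 of 6 alveolar macrophage markers were called lower. Their part in the difference was not tested.

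In air at 3 months the high-fat diet went with lower Cxcl1 and Cxcl2, so that 2 of 6 genes were called where 2.95% of all genes were called and 1.3% were called lower. Cxcl1 averaged 13.4 ± 3.91 CPM on the high-fat diet (SD, n = 5) and 28.6 ± 8.07 CPM on the regular diet (n = 4). The highest high-fat rat lay just below the lowest regular-diet rat, and the log2 fold change was -1.11 ± 0.19 (adjusted p = 0.00662). Cxcl2 averaged 0.640 ± 0.313 CPM on the high-fat diet and 2.19 ± 0.874 CPM on the regular diet. Its log2 fold change was -1.78 ± 0.36 (adjusted p = 0.0144), and without regular-diet rat 2 it was -1.46 and not called (adjusted p = 0.0603). Cxcl6 averaged 0.943 ± 0.649 CPM on the high-fat diet and 3.11 ± 0.983 CPM on the regular diet, from few reads. Its ranges were apart, as were those of Cxcl1 and Cxcl2 and of 9.96% of all genes, but the log2 fold change of -1.70 ± 0.52 did not pass (adjusted p = 0.0704).

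For Cxcl6 in air the call depended on the fit. It was called without high-fat rat 2 (-2.13, adjusted p = 0.0418), with DESeq2 (-1.72, adjusted p = 5.63e-04) and in a fit of only the groups compared (adjusted p = 0.0234). The log2 fold change was -0.05 for Cxcl3 (adjusted p = 0.797), -0.58 for Cxcr1 (adjusted p = 0.211) and 0.22 for Cxcr2 (adjusted p = 0.492). Lcn2 (-1.75) and Cd177 (-1.29) were the neutrophil markers called, both lower, and S100a8, S100a9 and Csf3r were not called. Alveolar macrophage markers were called lower for 3 of 6.

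Whether silica acted differently on the diets at 3 months was tested as an interaction, in which the silica effect under regular feeding was subtracted from that under high-fat feeding. By edgeR none of the 6 genes was called, as 0% of all genes were, and 1 of the 6, Cxcl2, had an unadjusted p below 0.05, as had 990 of all genes. DESeq2 called none of the 6 and 1 gene overall. The estimate was 1.16 ± 0.40 for Cxcl2 (adjusted p = 0.736), 0.46 ± 0.24 for Cxcl1 (adjusted p = 0.768) and 0.61 ± 0.54 for Cxcl6 (adjusted p = 0.856). The fold change of these ligands with silica was therefore not shown to differ between diets at 3 months.

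Among silica rats at 9 months no difference between diets was detected for any of the 6 genes. By edgeR none of the 6 genes was called between high-fat and regular diet under silica, where 3.52% of all genes were called, none had an unadjusted p below 0.05, and DESeq2 called none. Log2 fold changes lay between -0.02 ± 0.14 for Cxcl1 and 0.21 ± 0.20 for Cxcl6. Cxcl6 averaged 52.5 ± 10.8 CPM on the high-fat diet (SD, n = 6) and 45.4 ± 19.2 CPM on the regular diet (n = 5). The ranges overlapped for all 6 genes and were apart for 3.17% of all genes.

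In air at 9 months, Cxcr1 and Cxcl1 were lower on the high-fat diet, with 2 of 6 genes called against 15.2% of all genes called and 7.07% called lower. The same 2 genes had ranges that were apart, as had 6.05% of all genes. Cxcr1 averaged 10.1 ± 1.22 CPM on the high-fat diet and 20.9 ± 3.03 CPM on the regular diet (SD, n = 6 each). The log2 fold change of Cxcr1 was -1.04 ± 0.11 (adjusted p = 1.49e-06). Cxcl1 averaged 17.5 ± 2.42 CPM on the high-fat diet and 29.0 ± 4.94 CPM on the regular diet. Its log2 fold change was -0.73 ± 0.15 (adjusted p = 0.0013). The ribosomal RNA share separated these air groups without overlap, and with it as a covariate Cxcr1 (-0.90, adjusted p = 0.605) and Cxcl1 (-1.19, adjusted p = 0.598) kept their sign and were not called. With that covariate 1 gene in all was called for diet in air at 9 months, against 2327 without it.

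Cxcl2 in these air rats averaged 0.980 ± 0.386 CPM on the high-fat diet and 2.23 ± 1.07 CPM on the regular diet. Its log2 fold change of -1.11 ± 0.40 missed the threshold (adjusted p = 0.0564) and passed with DESeq2 (adjusted p = 0.0148), in a fit of all 8 groups (adjusted p = 0.0285) and without regular-diet rat 4 (0.0358) or 6 (0.0310). Cxcr2 went the other way, 21.0 ± 3.72 CPM on the high-fat diet and 15.3 ± 5.60 CPM on the regular diet, with a log2 fold change of 0.46 ± 0.17 (adjusted p = 0.0748). Without regular-diet rat 2, the highest of its group, it was 0.65 and called (adjusted p = 0.00735). Cxcl6 (-0.42, adjusted p = 0.512) and Cxcl3 (-0.16, adjusted p = 0.232) did not pass. Of the neutrophil markers Lcn2 (-1.50) and Cd177 (-1.06) were called lower, and 4 of 7 alveolar macrophage markers and 3 of 6 alveolar type 2 markers were called lower.

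**Figure D3:**
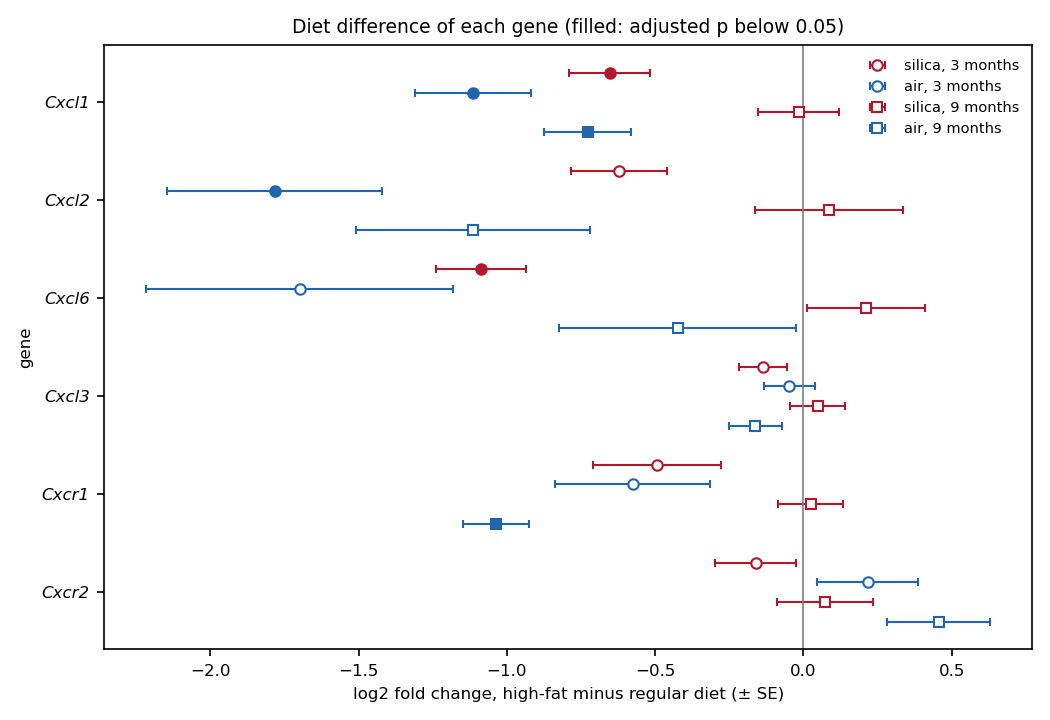
Log2 fold change, high-fat minus regular diet, of each gene with its standard error, under silica and in air at 3 and 9 months; filled symbols have an adjusted p below 0.05. Cxcl1 is called lower in 3 of the 4 comparisons, at -0.65, -1.11 and -0.73, and lies at -0.02 under silica at 9 months.

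The silica effect on Cxcr1 differed between diets at 9 months. With high-fat feeding it was larger by 1.06 ± 0.16 (log2 scale; adjusted p = 0.00294), the 1 call among the 6 genes where 1.09% of all genes were called and 0.55% were called higher. All 6 silica rats on the high-fat diet exceeded all 6 air rats of that diet, while on the regular diet the ranges overlapped. Leaving out any 1 rat gave 1.02 to 1.13 with an adjusted p of 5.04e-04 to 0.0113. For Cxcl1 the difference was 0.71 ± 0.20 (adjusted p = 0.0767), which passed with DESeq2 (adjusted p = 0.0252) and without regular-diet silica rat 3 (0.0482) or high-fat silica rat 1 (0.0486). For Cxcl2 it was 1.20 ± 0.47 (adjusted p = 0.230), for Cxcl6 0.64 (adjusted p = 0.563), for Cxcl3 0.21 and for Cxcr2 -0.38 (adjusted p = 0.496 each).

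Cxcr1 and Cxcr2, neighbours in the genome, were both called higher with silica on the high-fat diet at 9 months, and on the regular diet at both times Cxcr2 alone was called. The number of Cxcr2 reads per Cxcr1 read was 1.28 to 2.15 (median 1.64) with high-fat diet and silica, 1.19 to 1.94 (median 1.67) with regular diet and silica, 1.62 to 3 (median 1.95) with high-fat diet in air and 0.447 to 1.04 (median 0.725) with regular diet in air at 9 months. All regular-diet air rats lay below all rats of the other 3 groups. At 3 months the median was 1.88 with high-fat diet and silica, 1.78 with regular diet and silica, 2.07 with high-fat diet in air and 1.17 with regular diet in air, and the ranges overlapped. This count ratio depends on the lengths of both genes and is read only between groups.

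Whether the silica effect changed with time was tested as the effect at 9 months minus that at 3 months. On the regular diet Cxcl3 was the 1 gene of 6 called, lower by -0.44 ± 0.13 (adjusted p = 0.0367), where 6.78% of all genes were called and 3.07% were called lower. The call was lost with the share of ribosomal RNA as a covariate (-0.58, adjusted p = 0.0589), in a fit of only the groups compared (-0.45, adjusted p = 0.0678) and without 9-month regular-diet air rat 1 (0.0535) or silica rats 1 (0.0589) or 5 (0.0572). For Cxcl1 the difference was -0.64 ± 0.23 (adjusted p = 0.0786), called without 3-month regular-diet air rat 4 (0.0405), 3-month regular-diet silica rat 4 (0.0475) or 9-month regular-diet air rat 6 (0.0483). Cxcl6 (-0.29, adjusted p = 0.790), Cxcl2 (-0.34, adjusted p = 0.689), Cxcr1 (-0.26, adjusted p = 0.599) and Cxcr2 (0.46, adjusted p = 0.304) did not pass.

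On the high-fat diet edgeR called none of the 6 genes for a change with time, where 10.7% of all genes were called, 1 of the 6, Cxcr1, had an unadjusted p below 0.05, and DESeq2 called that 1. The estimate for Cxcr1 was 0.73 ± 0.26 (adjusted p = 0.0666), with DESeq2 0.74 (adjusted p = 0.0402) and in a fit of only the groups compared 0.72 (adjusted p = 0.00816). Estimates for the ligands were -0.38 for Cxcl1, -0.29 for Cxcl2, -0.26 for Cxcl6 and -0.13 for Cxcl3, with adjusted p of 0.327, 0.779, 0.834 and 0.545. Time after exposure, age and table are 1 factor here and cannot be told apart.

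Ranked by mean level within a time point, the 4 groups kept 1 order for Cxcl1, Cxcl2 and Cxcl6 at 3 months, regular diet with silica, then high-fat diet with silica, then regular diet in air, then high-fat diet in air. Every neighbouring pair in that order was apart for Cxcl1 and Cxcl6, and for Cxcl2 only the middle pair overlapped. For Cxcl3 the same order held, but neighbours overlapped within silica and within air. For Cxcr1 and Cxcr2 all neighbours in the order overlapped at 3 months. At 9 months the silica groups overlapped for all 6 genes, and neighbours were apart only between regular diet in air and high-fat diet in air for Cxcl1 and Cxcr1, and between regular diet with silica and regular diet in air for Cxcl3 and Cxcl6.

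Other genes of the pathway were taken from lists of 70 genes, of which 60 were tested at 3 months and 62 at 9 months. With silica at 3 months 16 were called higher and 4 lower on the high-fat diet, and 24 higher and 2 lower on the regular diet, with median log2 fold changes of 0.18 and 0.26. Of all genes, 9.23% were called higher among 17.4% called on the high-fat diet, and 10.2% higher among 16.8% called on the regular diet. Those with the smallest p on the high-fat diet were Zc3h12a (1.05), which encodes a nuclease that degrades inflammatory mRNAs, Il1rn (1.23), the natural antagonist of the Il1 receptor, Pf4 (0.79), a platelet and macrophage CXC chemokine, Pecam1 (-0.30), an endothelial adhesion molecule, and Pik3r5 (0.53), a subunit of the kinase acting below the chemokine receptors. On the regular diet they included Zc3h12a (1.08), Pf4 (0.95), Itgb2 (0.70), the beta chain of leukocyte integrins, and Pik3r5 (0.60). By list, on the regular diet, 4 of 8 other CXC chemokines, 5 of 15 inducing cytokine and NF-kB genes, 1 of 5 mRNA decay factors, 3 of 8 other attractants and receptors, 5 of 10 adhesion molecules and 6 of 14 receptor signalling genes were called higher.

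At 9 months 37 pathway genes were called higher and 9 lower on the high-fat diet, and 35 higher and 9 lower on the regular diet, with medians of 0.44 and 0.38. Il1rn rose by 1.80 on the high-fat diet and 1.79 on the regular diet, Itgam, the alpha chain of the integrin of neutrophils and macrophages, by 1.98 and 1.93, and C5ar1, the receptor for the complement attractant C5a, by 1.50 and 1.25. Rac2, a GTPase of neutrophil movement, rose by 1.07 and 0.87, and Myd88, the adaptor of Il1 and Toll-like receptors, by 0.61 on the regular diet. Receptor signalling genes were called higher for 10 of 14 on each diet. Ackr4, a scavenger receptor for other chemokines, fell by 1.24 on the high-fat diet and by 0.67 on the regular diet, and was picked after its values were seen. These shares stand beside the 51.6% and 45.1% of all genes called.

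Between diets, fewer genes were called, of the pathway as of all genes. Under silica at 3 months edgeR called 0 of 60 pathway genes, with 14 at an unadjusted p below 0.05, beside 0.702% of all genes called. In air at 3 months 2 were called higher, Gnai2 (0.26) and Grk6 (0.22), beside 2.95% of all genes called. In air at 9 months, where 15.2% of all genes were called, 13 of 62 were called lower and 2 higher on the high-fat diet, among them Nfkbia, the NF-kB inhibitor that NF-kB itself induces, at 213 CPM on the high-fat diet and 375 CPM on the regular diet (-0.81, adjusted p = 5.49e-05). Under silica at 9 months, where 3.52% of all genes were called, Cxcl9 (-0.81, adjusted p = 0.0235) and Il1rn (-0.37, adjusted p = 0.0343) were called lower. The ribosomal RNA share did not overlap between the diets at 9 months, in air or under silica. With it as a covariate, 1 gene in all was called for diet in air and 1 under silica. The interactions called 0 pathway genes by edgeR, with 7 of 60 at 3 months and 16 of 62 at 9 months at an unadjusted p below 0.05, beside 0% and 1.09% of all genes called. For the change with time, 18 of 63 were called higher and 3 lower on the high-fat diet and 5 higher and none lower on the regular diet, with Itgam at 1.29 on the high-fat diet and 1.15 on the regular diet. Of all genes 10.7% and 6.78% were called for that change.

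The genes whose levels followed each member most closely were found by the mean of the Pearson correlations of log2 CPM over the 19 rats of 3 months and the 23 rats of 9 months, among 12809 genes. These correlations are descriptions, since rats share groups and genes share libraries. They are largely set by the distance between groups, so the correlation left after subtracting group means over 42 rats is given as well. Cxcr2 was followed by Csf3r, the receptor of the neutrophil growth factor G-CSF, with 0.91 at 3 months, 0.94 at 9 months and 0.82 within groups. Next came S100a8 (0.89, 0.96 and 0.84 within groups) and Il1b (0.86, 0.94 and 0.79 within groups). Cxcr1 was followed by other genes, Naaa, a lysosomal lipid amidase (0.78, 0.91 and 0.64 within groups), Clec7a, the beta-glucan receptor Dectin of macrophages and dendritic cells (0.79, 0.88 and 0.58), and Tnfrsf8, the receptor CD30 (0.84, 0.83 and 0.62).

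Cxcr1 and Cxcr2 correlated at 0.25 and 0.26 with each other, rank 3752 of 12809 in the list of Cxcr1. In air at 9 months Naaa (-0.87, adjusted p = 4.51e-06), Clec7a (-0.56, adjusted p = 1.89e-04) and Tnfrsf8 (-1.11, adjusted p = 1.44e-04) were lower on the high-fat diet, like Cxcr1, and Csf3r (0.22), S100a8 (0.31) and Il1b (0.25) were not called. The genes were picked by likeness over the same rats, so this is no independent support.

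Cxcl1 and Cxcl2 were followed by each other (0.95, 0.93 and 0.48 within groups) and by Defb4, an epithelial antimicrobial peptide, at 0.94 and 0.94 (0.42 within groups) for Cxcl1 and 0.96 and 0.93 (0.55 within groups) for Cxcl2. Noxo1, a subunit that organises the epithelial NADPH oxidase, followed Cxcl1 (0.94 at both times, 0.38 within groups), and Lcn2, an iron-scavenging protein of epithelium and neutrophils, followed Cxcl2 (0.96 and 0.92, 0.41 within groups). Cxcl6 was followed by Chi3l1, a chitinase-like protein (0.98 at both times), the complement gene C3 (0.98 at both times) and Slc26a4, the anion exchanger pendrin of airway epithelium (0.97 and 0.98). Within groups these fell to 0.39, 0.48 and 0.62. Chi3l1 stands on the alveolar macrophage list, of which 4 of 6 markers were called higher with silica on each diet at 3 months. At 9 months 7 of 7 of that list were called higher on the high-fat diet and 6 of 7 on the regular diet. Cxcl3 was followed by the protease gene Tmprss4 (0.97, 0.94 and 0.72 within groups), Sftpa1, a surfactant protein of alveolar type 2 cells (0.97, 0.94 and 0.80), and Tgoln2, a trans-Golgi protein (0.98, 0.92 and 0.74). Sftpa1 stands on the alveolar type 2 list, of which 4 of 6 markers were called higher with silica on each diet at 3 months. At 9 months 4 were called higher and 1 lower on the high-fat diet, and 3 higher and 1 lower on the regular diet.

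**Figure D4:**
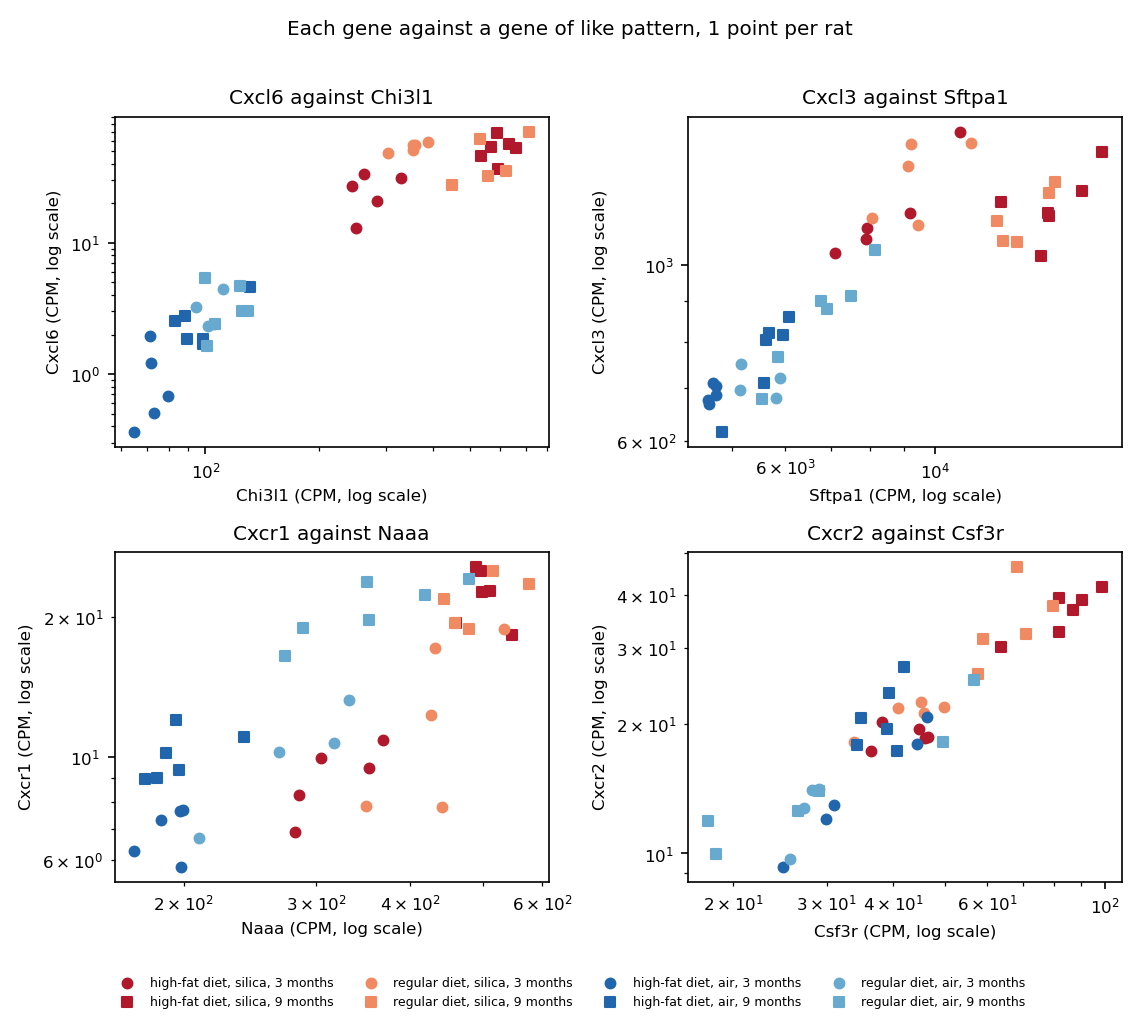
Cxcl6 against Chi3l1, Cxcl3 against Sftpa1, Cxcr1 against Naaa and Cxcr2 against Csf3r, each as CPM on log axes, 1 point per rat, coloured by group, with circles for 3 months and squares for 9 months. Cxcl6 and Chi3l1 fall into an air cloud and a silica cloud, with 0.39 left within groups, while Cxcr2 and Csf3r follow a continuous line, with 0.82 left within groups.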

How the data were processed

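Total lung RNA, depleted of ribosomal RNA, was sequenced from stranded libraries of 42 rats, per the labels' protocols. The authors deposited raw read counts per gene symbol, in 1 table per time point with 1 column per rat. Per the submitters' processing notes, the tools included HTSeq 0.6.1, TopHat2 2.0.9, Bowtie2 2.2.9, Trimmomatic 0.35, bcl2fastq 2.19 and SAMtools 0.1.19, with the build Rnor_6.0. The strand setting of the counting and the annotation are not given in the sources used here, so counts of overlapping genes on opposite strands and of paralogs are uncertain.

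Groups came from the labels, and rats were numbered within a group in accession order, which names them and pairs nothing. The labels name no batch or date. No library was a copy of another of its group: chi-square per degree of freedom was at least 1.93 for every pair, over genes with at least 10 counts.

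Genes were kept by filterByExpr in edgeR 4.0.16 (R 4.3.3), which left 15234 genes for the 3-month table, 15276 for the 9-month table and 15759 when both were joined. TMM scaled the library sizes. Quasi-likelihood models (glmQLFit with legacy=FALSE, glmQLFTest) had 1 coefficient per group. Each time point had its own fit of 4 groups, and changes with time came from a fit of all 8. P-values were adjusted by Benjamini-Hochberg over all genes tested, and genes below 0.05 were called. Standard errors come from the quasi-likelihood F statistic. The model was tested on simulated data. Alternatives were RLE size factors, no filter, DESeq2 1.42.0, other sets of groups in the fit, the ribosomal RNA share as a covariate and leaving out each rat. The 6 genes, the pathway and marker lists and the naming rules were chosen with earlier results of these data known. Named are all 6 genes, the 5 pathway genes with the smallest p in each silica comparison, and the 3 genes most alike to each member with a mean of at least 1 CPM in both tables (prior count of 2 for log2 CPM). One pathway gene that this rule names is not reported here. Other pathway genes and markers named in the text were picked after their values were seen.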

Additional observations from a re-analysis of the deposited data

Results flagged for a closer look

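Cxcl6 in rat 6 of the high-fat air group at 9 months had 4.58 CPM, against 2.76 CPM in the next rat of its group. The gap divided by the range of the group was 0.632, above Dixon's critical value for 6 rats. It was the 1 such case among the 48 combinations of gene and group tested, and chance gives about 1 in 20. The rat still lay below every silica rat.

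Cxcr1, the receptor that in humans binds the narrower range of ligands, had a larger silica effect on the high-fat diet than on the regular diet at 9 months, by 1.06 on the log2 scale. The air rats of the high-fat diet stood apart, and the other 3 groups shared 1 range. The ribosomal RNA share was highest on the high-fat diet at that time, as given with the library totals. With it as a covariate the difference was still called, but Cxcr1 was not called for diet in air (-0.90, adjusted p = 0.605). That share did not overlap between the diets under silica or in air, nor between silica and air on either diet. The covariate and these factors can hardly be told apart here.

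Cxcl3 had a smaller silica effect at 9 months than at 3 months on the regular diet, with a difference of -0.44 on the log2 scale.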

How the results depend on the processing

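The 6 genes in 12 comparisons gave 1412 values under the alternatives, of which 1358 kept direction and side of the threshold, 14 lost the call, 18 gained it and 22, none of them called, changed sign. With RLE size factors, and with no filter, all 72 values kept both. Adding the share of ribosomal RNA as a covariate left 3 of 6 genes called for silica with regular feeding at 9 months (5 without it), 0 for diet in air at 9 months (2 without it) and 0 for the change with time on the regular diet (1 without it). DESeq2 called 2 genes for the interaction at 9 months (1 with edgeR) and 1 for the change with time on the high-fat diet (0 with edgeR). A fit of only the groups compared called 0 genes for the change with time on the regular diet and 1 on the high-fat diet. The cause was not tested.

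Leaving out 1 rat gave 5 called genes (regular diet) and 4 to 5 (high-fat diet) for silica at 3 months, 5 and 6 at 9 months, 1 to 2 for diet under silica and 1 to 3 for diet in air at 3 months, 0 and 2 to 3 at 9 months, 0 for the interaction at 3 months and 1 to 2 at 9 months, and 0 for the change with time on the high-fat diet and 0 to 2 on the regular diet.

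Values that changed sign with that covariate were Cxcl3 (-0.18) and Cxcr2 (-0.21) for diet under silica at 9 months, Cxcl6 (0.42) for diet in air at 9 months and Cxcl6 (0.084) for the change with time on the regular diet. Those that changed sign when 1 rat was left out ranged from -0.079 to 0.24 for Cxcr1 in the interaction at 3 months and from -0.014 to 0.11 for Cxcr1 in the silica comparison of regular-diet rats at 9 months. For diet under silica at 9 months the range was -0.11 to 0.077 for Cxcl1, -0.045 to 0.39 for Cxcl2, -0.0080 to 0.085 for Cxcl3, -0.021 to 0.085 for Cxcr1 and -0.0092 to 0.20 for Cxcr2.

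Over all genes, the count called for diet under silica at 3 months was 107, and 221 with DESeq2, 59 with only the groups compared, 188 with all 8 groups and 55 to 209 without 1 rat. For diet in air at 3 months it was 449, and 92 with the covariate, 721 with DESeq2, 761 with only the groups compared, 855 with all 8 groups and 63 to 530 without 1 rat. At 9 months the covariate gave 4559 instead of 6886 for silica with regular feeding, 1 instead of 537 for diet under silica and 1 instead of 2327 for diet in air. DESeq2 gave 343 instead of 167 for the interaction at 9 months, and 284 (covariate) and 471 (only the groups compared) stood against 1068 for the change with time on the regular diet. Leaving out 1 rat gave 260 to 724 for diet under silica and 72 to 273 for the interaction at 9 months, and 667 to 1338 and 1115 to 1908 for the change with time on the regular and the high-fat diet.

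No paired analysis was possible because the labels give the groups no shared replicate numbers, and tags are unique to a rat. Depth limits Cxcl2 and Cxcl6 in air, where a rat had as few as 2 reads. At 9 months the ribosomal RNA share did not overlap between silica and air on either diet, nor between the diets under silica or in air. In those comparisons the covariate and the factor compared can hardly be told apart.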
